A study of Mus musculus with 8 samples.

Results

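The genes examined here are the nuclear genes for subunits of the mitochondrial respiratory chain and ATP synthase, measured by bulk RNA sequencing of the mouse auditory nerve. They were chosen by symbol alone: Nduf followed by a, b, c, s or v (without the Ndufaf assembly factors), Sdha to Sdhd, Uqcr, Cox4 to Cox8, and Atp5. The rule gave 86 of the 15035 genes in the deposited table, with 41 in complex I, 4 in complex II, 8 in complex III, 16 in complex IV and 17 in complex V. All 86 reached 10 normalized counts in 4 or more libraries, the filter for testing, and so did 14870 genes in all. Among them Ndufa4 is now regarded as a subunit of complex IV, Ndufa4l2 is its paralog, Cox7a2l is a factor that joins complexes into supercomplexes, and Ndufb4c, Ndufs5-ps and Cox7c-ps1 are symbols of copies of Ndufb4, Ndufs5 and Cox7c.

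Nerves were dissected from cochleas at postnatal day 21. Wild-type mice gave 4 libraries, replicates 1 to 4, and mice labelled Mef2c heterozygote (+/-) gave 4, replicates 5 to 8. Mef2c encodes a MADS-box transcription factor, and the study asked what its reduced function changes in this nerve. Each library pools the nerves of both cochleas of 1 mouse and holds neurons, glia and other cells of the tissue together. The strain, the sex and the structure of the Mef2c allele are not given in the sources used here.

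The respiratory chain passes electrons from NADH (complex I) and succinate (complex II) through complex III to complex IV, which reduces oxygen. Complexes I, III and IV pump protons across the inner mitochondrial membrane, and complex V, the ATP synthase, uses the gradient to make ATP. Each complex has a few large catalytic subunits and, apart from complex II, many small accessory subunits. Mitochondrial DNA encodes a few core subunits of complexes I, III, IV and V, and all others come from nuclear genes. Spiral ganglion neurons fire at high rates, and their ion pumping draws on ATP from these complexes.

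The reads behind each library were estimated at 13363056 to 21505981, with wild-type libraries 1 and 4 the shallowest. Mef2c itself had 438.6, 498.4, 508.7 and 402.2 normalized counts in wild-type libraries 1 to 4 and 583.3, 704.9, 735.1 and 649.8 in the heterozygote-labelled libraries. It was higher, not lower, in all 4 of the latter (limma-trend adjusted p = 0.186). A count over the whole gene cannot show whether part of it is missing from an allele, and the allele's structure is not given. The Mef2c level therefore cannot test the genotypes, and groups are named below as the libraries are labelled. Markers of neurons, Schwann cells and oligodendrocytes were all present. The summed oligodendrocyte markers lay between 98715 and 134556 normalized counts in wild type and between 46144 and 66037 in the heterozygote-labelled libraries. With limma-trend 5 of these 8 markers were lower at an adjusted p under 0.05. The 10 neuronal markers summed to between 155379 and 216301 against between 174613 and 202806, so the genotypes overlapped. The 5 astrocyte markers summed to 20365 to 29927 in wild type and 10938 to 18361 in the other group, and the 6 Schwann cell markers to 206929 to 243201 against 157014 to 185662. None of the markers in these 4 lists was at 0 in any library. Among neutrophil markers, S100a8, S100a9 and Ngp had higher counts in every heterozygote-labelled library than in any wild-type one, at log2 fold changes of 4.09, 3.62 and 3.73 (limma-trend adjusted p = 0.0763, 0.0920 and 0.0920). The 4 neutrophil markers in the table summed to 2346.4, 142.0, 364.8 and 106.3 in wild-type libraries 1 to 4 and 1325.1, 649.1, 6030.2 and 4405.8 in heterozygote-labelled libraries 5 to 8, with the highest sums in libraries 7 and 8. Ltf, whose groups overlapped, made up most of the sum in wild-type library 1, at 2176.4. Without wild-type library 3, 3 of these 4 markers passed the limma-trend threshold.

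Subunit transcripts lay lower in the heterozygote-labelled libraries in 82 of 86 genes, but no single gene passed the test across all genes. The fold changes here are heterozygote-labelled minus wild type on the scale of log2(normalized counts + 1). Their median over the 86 genes was -0.36, against 0.015 over all genes tested. The most negative values were those of small subunits, and several large catalytic subunits, such as Ndufs1 of complex I, Sdha of complex II and Atp5b of complex V, had values near 0. The limma-trend test with Benjamini-Hochberg adjustment called 0 of the 86 genes at an adjusted p under 0.05, where it called 0.0807% of all genes and 0.074% as lower. The adjusted p ran from 0.207 in Ndufc2 to 0.989 in Ndufs1. At an unadjusted p under 0.05, 57 of the 86 (66.3%) were lower, against 7.34% of all genes tested, and 0 were higher, against 6.72%. In 22 of the 86 every wild-type library exceeded every heterozygote-labelled one, against 3.86% of all genes, and in 0 was the order reversed, against 3.4%. A negative fold change was seen in 47.7% of all genes. In bulk tissue, fewer cells of a type and less RNA per cell cannot be told apart. The part of the glial markers, which were lower in the same libraries, and of the neutrophil markers, which were higher there, was not tested. With transcript length corrected for, 25 of 85 were lower at an unadjusted p under 0.05, against 6.7% of all genes. With that correction 9 did not overlap and the median was -0.16. Without heterozygote-labelled library 8, 29 of the 86 were lower at an unadjusted p under 0.05. Without it and wild-type library 1 the count was 17, against 3.52% of all genes. No share over all genes is given for the 9 or the 29, so these counts lack a background.

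**Figure D1:**
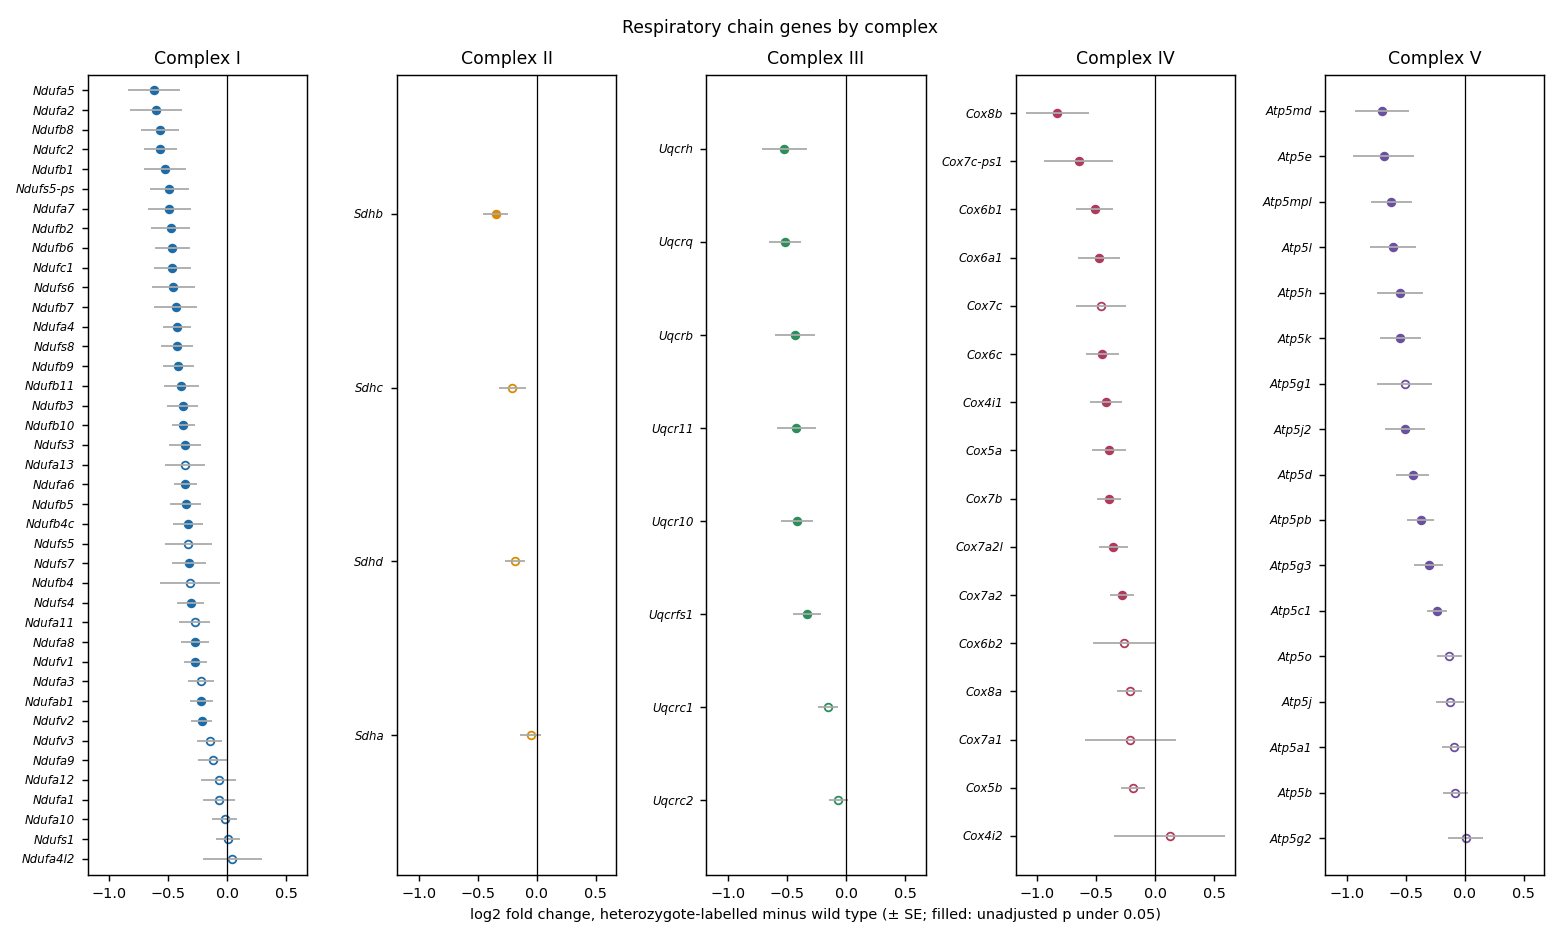
The log2 fold change of 85 of the 86 genes (heterozygote-labelled minus wild type, 4 libraries a group, bars ± SE) is plotted by complex, with filled points for an unadjusted p under 0.05. Filled points all lie left of 0, and Ndufs1, Sdha, Uqcrc2, Atp5a1 and Atp5b lie close to it.

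The authors' deposited table of their own comparison gave an FDR under 0.05 for 5 of the 86 genes, all lower, against 0.938% of its genes called lower. In the authors' deposited table the ratio of heterozygote to wild type was 0.672 for Ndufc2 (FDR 0.0190) and 0.691 for Uqcrq (FDR 0.0337). The others in the authors' deposited table were Cox7b at a ratio of 0.759, Ndufb8 at 0.660 and Atp5mpl at 0.649. All 5 are small subunits without a redox centre or catalytic site.

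Because the subunits lay low together, the sequence before their start sites was read from RefSeq promoters (GRCm38.p6), which held 69 of the 86 genes as windows of 300 bases, 250 before to 50 after the start. 4 motifs were searched on both strands: GCGC and TGCGC with any 1 base between them for NRF1 and CCGGAAG for ETS factors such as GABP, both regulators of respiratory genes, ATGGCGGC for YY1, and CTA and TAG with any 4 bases between them for the MEF2 family. The NRF1 motif was in 16 of 69 windows (23.2%), against 9.72% of the tested genes with a window and 4.78% of all promoters. The ETS motif was also in 16 of 69 (23.2%), against 16.5% and 9.12%. The YY1 motif was in 6 (8.70%, against 4.60% and 2.38%). The MEF2 motif was in 1, Cox5b (1.45%, against 2.97% and 3.70%). Of the 46 genes with a window and a lower value at an unadjusted p under 0.05, 8 held the NRF1 motif and 14 the ETS motif, and of the other 23 genes 8 held the NRF1 motif and 2 the ETS motif. A match is a description of these letters and shows no binding.

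The 250 bases before the start are shown for 4 genes with a lower value at an unadjusted p under 0.05 and for 2 large subunits with a fold change near 0, to set windows with and without matches side by side within each kind. They run 5′ to 3′ in the direction of transcription, and capitals mark matches to the NRF1 motif or, where the capitals read CTTCCGG, to the reverse strand of the ETS motif. The first kind is Cox6a1 (chr5:115348959-115349208, minus strand), Atp5h (chr11:115419920-115420169, minus strand), Atp5k (chr5:108434400-108434649, minus strand) and Ndufc2 (chr7:97399753-97400002, plus strand). The second is Sdha (chr13:74350241-74350490, minus strand) and Atp5b (chr10:128083057-128083306, plus strand).
Cox6a1: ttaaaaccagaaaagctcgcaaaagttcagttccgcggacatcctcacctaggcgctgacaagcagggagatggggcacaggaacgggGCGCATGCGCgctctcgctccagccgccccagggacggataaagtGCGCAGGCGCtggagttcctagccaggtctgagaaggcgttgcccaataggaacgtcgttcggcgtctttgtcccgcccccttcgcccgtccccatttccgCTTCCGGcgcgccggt
Atp5h: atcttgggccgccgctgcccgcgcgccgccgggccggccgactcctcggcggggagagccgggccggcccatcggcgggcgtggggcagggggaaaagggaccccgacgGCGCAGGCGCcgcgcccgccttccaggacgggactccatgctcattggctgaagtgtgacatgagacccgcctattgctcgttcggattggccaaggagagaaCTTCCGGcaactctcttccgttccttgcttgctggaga
Atp5k: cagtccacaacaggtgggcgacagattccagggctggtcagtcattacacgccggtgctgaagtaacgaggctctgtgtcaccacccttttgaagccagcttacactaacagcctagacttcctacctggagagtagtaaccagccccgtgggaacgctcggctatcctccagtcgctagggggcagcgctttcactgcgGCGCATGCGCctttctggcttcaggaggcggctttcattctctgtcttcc
Ndufc2: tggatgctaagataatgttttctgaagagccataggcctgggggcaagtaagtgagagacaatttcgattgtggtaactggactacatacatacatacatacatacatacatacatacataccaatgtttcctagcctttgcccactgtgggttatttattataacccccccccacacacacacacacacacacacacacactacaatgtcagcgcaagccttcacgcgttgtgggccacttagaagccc
Sdha: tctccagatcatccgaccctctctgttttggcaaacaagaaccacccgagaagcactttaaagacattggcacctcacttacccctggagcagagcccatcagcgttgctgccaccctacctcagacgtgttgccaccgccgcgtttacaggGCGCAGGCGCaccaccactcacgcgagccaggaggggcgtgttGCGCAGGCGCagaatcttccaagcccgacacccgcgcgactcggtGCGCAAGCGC
Atp5b: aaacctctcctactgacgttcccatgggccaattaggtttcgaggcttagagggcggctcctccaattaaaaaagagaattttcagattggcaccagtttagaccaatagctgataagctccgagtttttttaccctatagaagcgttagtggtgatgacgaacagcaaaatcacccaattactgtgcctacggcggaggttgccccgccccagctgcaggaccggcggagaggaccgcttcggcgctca
The NRF1 match of Atp5h begins 141 bases before the start, those of Cox6a1 162 and 117 bases before it, and that of Atp5k 50. Sdha, with a fold change of -0.052, has 3 NRF1 matches, at 98, 55 and 10 bases before the start. Ndufc2, at -0.57, and Atp5b, at -0.079, have no match to any of the 4 motifs in these 250 bases.

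Complex I takes electrons from NADH through a flavin and a chain of iron-sulphur clusters. Its 7 nuclear core subunits, most of which hold these centres, had a median fold change of -0.27, and 6 of the 7 were lower at an unadjusted p under 0.05. The exception was Ndufs1, the largest of them, with 2936.6, 3604.4, 3889.5 and 3327.2 normalized counts in wild-type libraries 1 to 4 and 3649.4, 3519.5, 3306.8 and 3259.4 in heterozygote-labelled libraries 5 to 8. Wild-type library 1 was the lowest and wild-type library 3 the highest of all 8, so the groups overlapped. The means were 3439 ± 406 and 3434 ± 183 (SD, n = 4 each). Ndufv1, which binds NADH and the flavin, had 4727.8, 4471.9, 4237.6 and 4438.9 in wild type and 4241.7, 3777.1, 3554.7 and 3304.1 in the heterozygote-labelled libraries. Its fold change was -0.27 (SE 0.094), and by limma-trend its adjusted p was 0.278. Ndufv2, an iron-sulphur subunit, had a fold change of -0.22. Ndufs8, which carries a pair of iron-sulphur clusters, had the most negative core value, -0.42. Its 4 wild-type libraries had 2336.0, 1658.3, 1731.5 and 1907.2 and the heterozygote-labelled ones 1453.4, 1637.2, 1449.4 and 1144.8, without overlap.

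The 30 accessory subunits of complex I form a shell around the core and carry no redox centre. All 30 had a negative fold change, with a median of -0.37, and 20 were lower at an unadjusted p under 0.05. Ndufc2, in the membrane arm (chromosome 7, 97400003 to 97407802 in GRCm38), had the lowest p of all 86 genes. Its wild-type libraries had 3389.8, 2580.9, 2227.4 and 2849.3 normalized counts and the heterozygote-labelled libraries 2104.0, 2063.2, 1685.9 and 1563.0. The lowest wild-type library, replicate 3, was above the highest heterozygote-labelled one. The means were 2762 ± 490.0 and 1854 ± 270.3 (SD, n = 4 each), a fold change of -0.57 (SE 0.14). The limma-trend p was 0.00156 before adjustment and 0.207 after it.

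Ndufb8, also in the membrane arm, had 5828.4, 3659.7, 3212.9 and 4181.5 in wild type and 3044.7, 2954.6, 2828.0 and 2310.3 in the heterozygote-labelled libraries, again without overlap. Ndufa5 and Ndufa2, subunits of the arm that projects into the matrix, had the most negative values of complex I, -0.62 and -0.61. Their spread was wider: Ndufa5 had 2060.8, 1164.7, 861.6 and 1410.8 in wild type and 1002.6, 894.8, 841.5 and 692.0 in the heterozygote-labelled libraries, where wild-type library 3 lay within the other group. 6 further accessory genes had groups that did not overlap, with fold changes of -0.53 (Ndufb1), -0.47 (Ndufb6), -0.38 (Ndufb3), -0.37 (Ndufb10), -0.35 (Ndufa6) and -0.22 (Ndufa3). At the other end Ndufa10, Ndufa1 and Ndufa12 had values of -0.024, -0.070 and -0.075. With the length correction these 3 became positive, at 0.031, 0.21 and 0.12.

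Complex II links the chain to the citric acid cycle and has only 4 subunits, all nuclear. Its median was -0.19, the value nearest to 0 of the 5 complexes. Its transcripts are also longer, with a median of 2065.5 bases against 631.5 to 955 in the other complexes. With the length correction its median was -0.12, still nearest to 0, and that of complex III was next at -0.15. Sdha, the flavoprotein that oxidizes succinate, had 8323.9, 8695.4, 9187.4 and 9387.4 in wild type and 9279.6, 8758.3, 8235.5 and 8074.6 in the heterozygote-labelled libraries. The ranges overlapped almost fully, and the fold change was -0.052 (SE 0.089). Sdhb, the iron-sulphur subunit, was the only gene of the complex lower at an unadjusted p under 0.05. It had 2891.5, 2451.6, 2219.1 and 2654.8 in wild type and 2244.2, 2040.6, 1968.6 and 1772.1 in the heterozygote-labelled libraries, where library 5 was just above wild-type library 3. The membrane anchors Sdhc and Sdhd had fold changes of -0.21 and -0.18, and only for Sdhd did the groups not overlap.

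**Figure D2:**
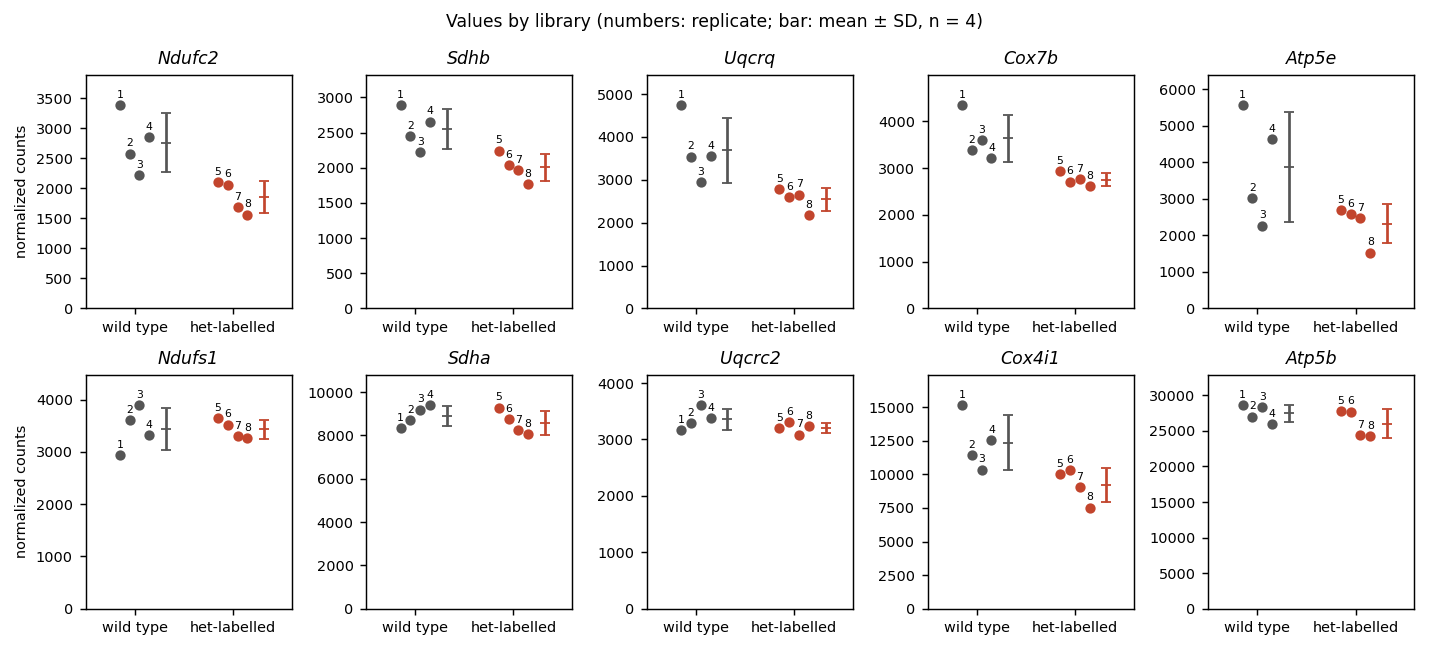
Normalized counts in each library are plotted for 2 subunits of each complex, with the replicate number above each point and bars for the mean ± SD (n = 4 a group). In the upper row wild-type library 1 is the highest point in every panel, and in the lower row Ndufs1, Sdha, Uqcrc2 and Atp5b overlap between groups.

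Complex III passes electrons from ubiquinol to cytochrome c. Its large core proteins Uqcrc1 and Uqcrc2, which face the matrix, had fold changes of -0.15 and -0.065. Uqcrc2 had 3165.3, 3284.9, 3604.2 and 3383.8 in wild type and 3206.3, 3302.2, 3085.3 and 3239.4 in the heterozygote-labelled libraries, and here wild-type library 1 was the lowest wild-type value. Uqcrfs1, the Rieske iron-sulphur protein, had a value of -0.33. The 5 small subunits Uqcrh, Uqcrq, Uqcrb, Uqcr11 and Uqcr10 lay close together, from -0.52 to -0.41, and all 5 were lower at an unadjusted p under 0.05. Uqcrq had 4743.3, 3540.5, 2940.6 and 3547.5 normalized counts in wild type and 2784.0, 2589.5, 2656.6 and 2168.7 in the heterozygote-labelled libraries. The groups did not overlap, the fold change was -0.52 (SE 0.14), and the limma-trend adjusted p was 0.220.

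Complex IV is built on 3 subunits from mitochondrial DNA, with the nuclear subunits around them. Its 10 common nuclear subunits had a median of -0.41, and 7 of the 10 were lower at an unadjusted p under 0.05. Cox4i1, the largest nuclear subunit, had 15125.6, 11410.0, 10339.6 and 12533.9 in wild type and 9989.4, 10315.8, 9030.1 and 7528.5 in the heterozygote-labelled libraries. Wild-type library 3 was just above heterozygote-labelled library 6, so the groups did not overlap, and wild-type library 1 was far above the rest. The fold change was -0.42 (SE 0.14). Cox7b had less spread, with 4347.5, 3382.9, 3591.4 and 3214.1 in wild type and 2929.5, 2711.5, 2771.5 and 2611.2 in the heterozygote-labelled libraries, a fold change of -0.39 (SE 0.10). Its limma-trend adjusted p was 0.220. Cox6b1, on the side that faces cytochrome c, had the most negative value of the common subunits, -0.51, and Cox5b, which binds zinc, the one nearest to 0, -0.19. Ndufa4, counted under complex I by its symbol, had 5599.9, 3892.3, 3925.0 and 4006.4 in wild type and 3256.5, 3387.6, 3184.3 and 2983.5 in the heterozygote-labelled libraries. Its groups did not overlap, at a fold change of -0.43. Cox7a2l had a fold change of -0.36, also without overlap.

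Complex V consists of a catalytic head in the matrix, a rotating stalk and c-ring, a peripheral stalk, and small proteins in the membrane that hold its dimers together. It had the most negative median of the 5 complexes, -0.44, with 11 of 17 genes lower at an unadjusted p under 0.05. Within the head and central stalk the 2 large subunits had values near 0 and the small ones more negative values. Atp5b, the catalytic beta subunit, had 28588.5, 27015.9, 28313.8 and 25920.5 in wild type and 27786.5, 27693.5, 24377.5 and 24268.9 in the heterozygote-labelled libraries. The groups overlapped, with means of 27459.7 ± 1234 and 26032 ± 1974 (SD, n = 4 each) and a fold change of -0.079. Atp5a1, the alpha subunit, had a value of -0.091, Atp5c1, the gamma subunit of the rotor, -0.24, and Atp5d, the delta subunit, -0.44. Atp5e, the epsilon subunit and the smallest, had 5572.6, 3025.7, 2269.6 and 4629.7 in wild type and 2693.8, 2593.9, 2475.6 and 1529.2 in the heterozygote-labelled libraries, a fold change of -0.69 (SE 0.26). Wild-type library 3 lay below 3 heterozygote-labelled libraries, so these groups overlapped. For every 100 normalized counts of Atp5b, Atp5e had 19.5, 11.2, 8.02 and 17.9 in wild type and 9.69, 9.37, 10.2 and 6.30 in the heterozygote-labelled libraries, so this ratio differed more than 2-fold among the wild-type libraries themselves.

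The 5 small membrane proteins of the synthase formed the group with the most negative median of all roles with 2 or more genes, -0.60, and all 5 were lower at an unadjusted p under 0.05. Atp5md had 1883.1, 1020.4, 878.1 and 1596.8 in wild type and 913.5, 927.1, 777.5 and 589.8 in the heterozygote-labelled libraries, a fold change of -0.70 (SE 0.23). Wild-type library 3 again fell within the other group. Atp5mpl, Atp5l, Atp5k and Atp5j2 had fold changes of -0.62, -0.60, -0.54 and -0.51, and only for Atp5k did the groups not overlap. In the peripheral stalk Atp5pb and Atp5h, its b and d subunits, had -0.37 and -0.55, while Atp5j, coupling factor 6, and Atp5o, which ties the stalk to the head, had -0.13 and -0.13, which became 0.11 and 0.10 with the length correction. The 3 genes that encode the same mature c subunit had unequal values: Atp5g1 had -0.51, Atp5g3 -0.30 and Atp5g2 0.0080, which became -0.0066 under upper-quartile scaling.

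Some complexes have genes for tissue or paired isoforms, and their ratio to the partner gene within a library does not depend on the scaling of the library. 7 pairs were compared, and 4 libraries against 4 can give no two-sided exact permutation p below 0.0286. Cox8b, the heart and muscle form of subunit 8, had the most negative fold change of all 86 genes, -0.83 (SE 0.27). It had 549.0, 609.6, 342.8 and 701.8 normalized counts in wild type and 359.5, 399.1, 317.6 and 176.3 in the heterozygote-labelled libraries, and wild-type library 3 lay below heterozygote-labelled libraries 5 and 6. As a percentage of Cox8a it was 15.5, 20.3, 11.96 and 24.6 in wild type and 14.9, 13.7, 11.4 and 7.23 in the heterozygote-labelled libraries. The log2 ratio differed by -0.61 (exact permutation p = 0.114, adjusted over 7 pairs 0.400). Skeletal muscle markers were scarce, with 3 of 10 listed in the table and sums of 32.1 to 63.1 normalized counts in wild type and 9.80 to 66.0 in the heterozygote-labelled libraries.

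Ndufa4l2, at 1.64, 3.10, 1.84 and 1.81% of Ndufa4 in wild type and 2.60, 2.31, 3.11 and 3.36% in the heterozygote-labelled libraries, had the lowest p of the 7 pairs. Its log2 ratio was higher by 0.47 (exact permutation p = 0.0857, adjusted 0.400). Ndufa4l2 and Cox4i2 are known as pericyte-enriched and oxygen-responsive genes, and the 8 markers of pericytes and smooth muscle summed to 6679.5 to 8631 in wild type and 7949.7 to 8736 in the heterozygote-labelled libraries. The sum hides that 3 of the 8 had a negative and 5 a positive fold change. By limma-trend 2 were lower at an unadjusted p under 0.05, Acta2 at -0.47 and Tagln at -0.43, and 0 were higher. Over all genes the shares were 7.34% and 6.72%. Cox4i2 was under 1% of Cox4i1 in every library, with a difference of 0.54 in log2 ratio (exact permutation p = 0.343). Cox7a1, the muscle form of subunit 7a, ran from 3.999% to 12.9% of Cox7a2, lowest in wild-type library 3 and highest in heterozygote-labelled library 6. Cox6b2, known from testis, ran from 1.75% to 4.20% of Cox6b1. Atp5g1 was 18.2% to 32.9% of Atp5g3, and Atp5g2 7.15% to 11.98%. No ratio passed the exact permutation test, with an adjusted p of 0.4 or more for each of the 7. A single pair could not pass after this adjustment even at the smallest possible exact permutation p, 0.0286. The result therefore does not show that the ratios are unchanged.

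**Figure D3:**
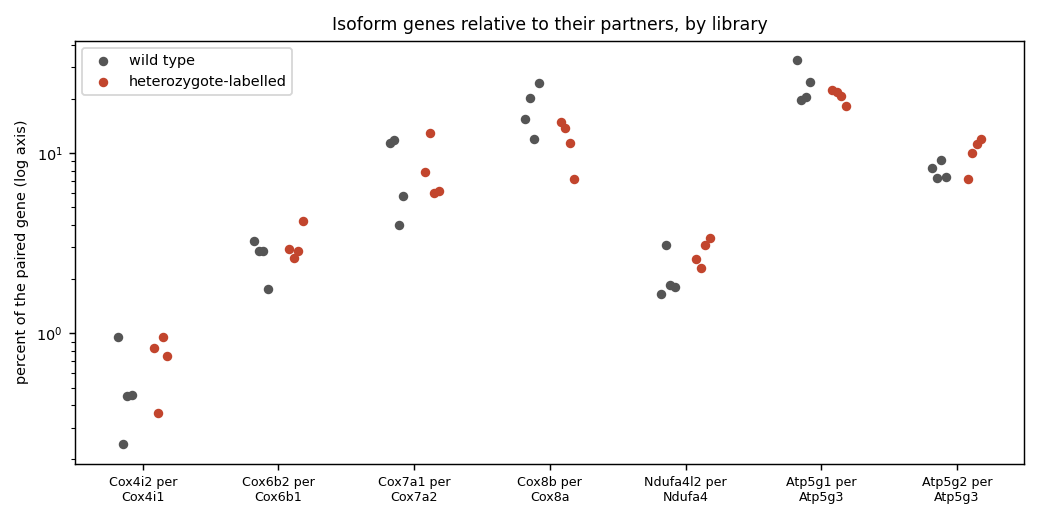
Each point is 1 library, with the isoform gene as a percentage of its partner on a log axis, for the 7 pairs and both groups (n = 4 each). The groups overlap in every pair.

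Copies of 3 subunits are listed, and reads could be split between a copy and its parent gene where they share sequence. Ndufs5-ps was matched by its symbol and not aligned. Ndufb4c is identical to Ndufb4 over all 390 bases of its transcript, and it took most of the counts, 1642 ± 301 in wild type against 228 ± 82.1 for Ndufb4 (SD, n = 4 each). Their sum was 1869 ± 351 in wild type and 1462 ± 112 in the heterozygote-labelled libraries. The log2 difference was -0.34, with no overlap (two-sided exact permutation p = 0.0286, the smallest possible). The sum of Ndufs5 and Ndufs5-ps was 2441 ± 246.0 against 1826 ± 245, a log2 difference of -0.42 with the same exact permutation p. Cox7c and Cox7c-ps1, identical at 99.4% of 315 aligned bases, summed to 684 ± 119 against 481 ± 116 and overlapped (log2 difference -0.52, exact permutation p = 0.0857). Each copy's own value is therefore uncertain, and the sums are the safer reading.

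Levels were compared between genes as wild-type normalized counts per kilobase of the shortest principal transcript, for 75 genes whose length was clear, leaving out the copy symbols. Their parents Ndufs5, Cox7c and Ndufb4 are among the 75, with levels that are uncertain for the reason above. Cox4i1 was the highest at 16580.2 ± 2758 per kilobase (SD, n = 4), and Atp5b followed at 14332 ± 644, within that spread. Cox6a1 (9512 ± 2686), Cox5a (9326 ± 1439) and Atp5e (9203 ± 3563) did not differ from each other beyond their spread. The lowest 2 were Ndufa4l2 at 95.7 ± 24.4 and Cox4i2 at 94.6 ± 71.03.

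Transcript length moved with the fold change, both in these genes and over all tested genes. The 39 genes with a principal transcript under 700 bases had a median fold change of -0.46, with 29 lower at an unadjusted p under 0.05. The 26 genes of 700 to 1199 bases had -0.35, with 19 lower, and the 20 genes of 1200 bases or more had -0.19, with 8 lower. Over all genes tested, of any length, limma-trend gave 7.34% lower at an unadjusted p under 0.05. No share over all genes of each length class is given, so these counts lack a background of like length. Across genes, Spearman's rho between the length of the shortest principal transcript and fold change was 0.54 over 85 of the 86 genes and 0.44 over 14704 tested genes. With the longest principal transcript it was 0.39 and 0.45, both pairs given as a description since genes share their libraries. With a smooth trend on length removed from each library, the median was -0.16 with 71 negative values. Then 25 of 85 genes were lower at an unadjusted p under 0.05, against 6.7% of all genes, and 0 were higher, against 3.84%. At an adjusted p under 0.05 limma-trend called 0 of the 85, against 0.177%. In place of the longest, lengths from the shortest principal transcript gave 27 lower, against 6.83%, 0 higher, against 3.9%, and 0 at an adjusted p under 0.05 by limma-trend, against 0.184%.  With the longest, the 5 small membrane proteins of complex V were all still lower at an unadjusted p under 0.05, with a median of -0.33, and Ndufc2 had -0.32. Over complex I, II, III and IV the corrected medians were -0.16, -0.12, -0.15 and -0.17, and over complex V -0.26, with 10 of its 17 genes lower.

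**Figure D4:**
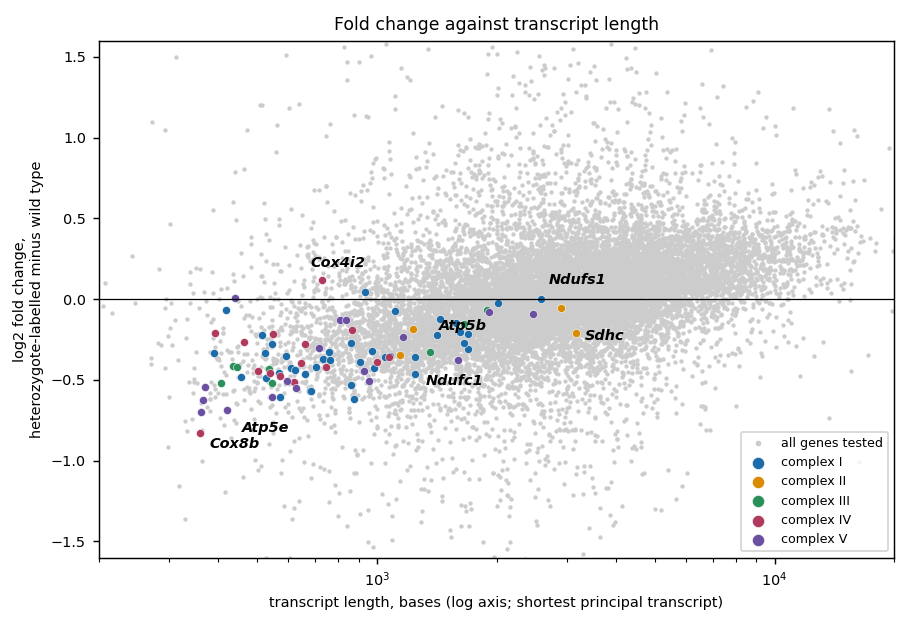
Log2 fold change (heterozygote-labelled minus wild type) is plotted against the length of the shortest principal transcript on a log axis, with the respiratory chain genes coloured by complex over all tested genes in grey. Short genes such as Cox8b and Atp5e lie lowest and long ones such as Ndufs1 near 0, and the grey cloud slopes the same way; a few grey genes beyond 1.6 are outside the axis.

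Single libraries carried much of the difference. Wild-type library 1 had the highest value in 65 of the 86 genes and heterozygote-labelled library 8 the lowest in 65. Of these, library 1 is low in Xist and library 8 is not. The median deviation of the 86 genes from their own mean was 0.46, 0.11, -0.048 and 0.21 in wild-type libraries 1 to 4 and -0.055, -0.10, -0.19 and -0.40 in heterozygote-labelled libraries 5 to 8 (log2). Wild-type library 3 lay next to heterozygote-labelled library 5, and the groups did not overlap. The slope of all genes' deviation per doubling of length was -0.21, -0.028, 0.064 and -0.10 in wild type and 0.035, 0.051, 0.038 and 0.15 in the heterozygote-labelled libraries, so libraries 1 and 8 were also its extremes. After the length correction the median deviations of 85 genes were 0.14, 0.075, 0.069 and 0.027 against 0.011, -0.017, -0.16 and -0.18 and still did not overlap. The 86 genes took 1.38% to 1.77% of normalized counts in wild type and 1.13% to 1.36% in the heterozygote-labelled libraries. Without both libraries 1 and 8, 17 genes were lower at an unadjusted p under 0.05, against 3.52% of all genes, 0 were higher, against 4.79%, and the median was -0.19. Without wild-type library 3, limma-trend called 7 of the 86 at an adjusted p under 0.05 (Atp5h, Atp5l, Atp5mpl, Cox6b1, Cox6c, Ndufc2 and Uqcrq), where it called 1.49% of all genes. Without heterozygote-labelled library 8, 29 were lower at an unadjusted p under 0.05, and no share over all genes is given for this setting. With a covariate for the first principal component of the fit's residuals, limma-trend called 29 of the 86, all lower, at an adjusted p under 0.05. It called 3.87% of all genes in that fit, against 0.0807% without the covariate. The component came from the same values with group means removed. It leaves the fold changes as they are and lowers only the residual variance, so its p-values are too small and the 29 calls are no separate support.

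**Figure D5:**
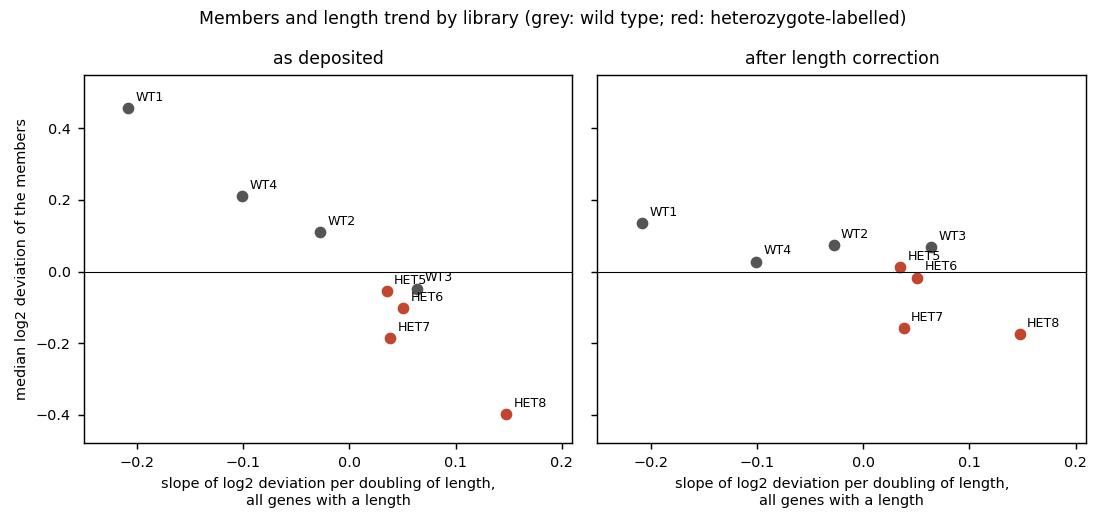
Each point is a library, with the slope of all genes' log2 deviation per doubling of transcript length on the x axis and the median log2 deviation of the respiratory chain genes on the y axis, before (left, 86 genes) and after (right, 85 genes) the length correction. WT1 and HET8 stand at the ends on the left, and on the right the wild-type libraries lie between 0.027 and 0.14 and the heterozygote-labelled ones between -0.18 and 0.011.

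Other genes of the pathway, in lists set by function, had none at a limma-trend adjusted p under 0.05. Over all genes tested, 7.34% were lower and 6.72% higher at an unadjusted p under 0.05. The counts of the lists were not tested against these shares, and no difference between lists was tested. Of the factors that assemble complex I, 2 of 15 were lower at an unadjusted p under 0.05 (median -0.21). For complex II it was 1 of 4, Sdhaf4, and for complex III 1 of 6, Uqcc3, at fold changes of -0.43 and -0.42. Of 22 factors for complex IV, 5 were lower and 1 was higher. Cox17, the copper chaperone, had the most negative value, -0.65 (SE 0.17) and a limma-trend adjusted p of 0.220, and Cox15, which makes heme A, was the one higher, at 0.33. None of the 3 factors for complex V was lower. Of 12 genes for electron carriers between complexes or for the synthesis of coenzyme Q, 2 were lower. They were Cycs, cytochrome c, at -0.27 and Etfdh at -0.28. Of the ATP export and outer membrane proteins 1 of 6 was lower, the phosphate carrier Slc25a3 at -0.21. Among subunits under other symbols, Atpif1, the inhibitor of ATP synthase, had -0.41, and Cyc1, cytochrome c1 of complex III, -0.11.

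Enzymes of the citric acid cycle and pyruvate dehydrogenase, which feed the chain, had 3 of 16 lower and a median of -0.079. The 14 regulators of mitochondrial genes had 0 lower and 2 higher at an unadjusted p under 0.05, with a median of 0.033. The shares over all genes were 7.34% lower and 6.72% higher. The regulators ran from -0.18 in Esrra, a nuclear receptor, to 0.36 in Pprc1, a coactivator. Mitochondrial ribosomal proteins had 18 of 78 lower, at a median of -0.22. Cytosolic ribosomal proteins, which are outside the mitochondrion and also have short transcripts, had 49 of 79 (62%) lower, at a median of -0.42. After the length correction 28 of these 79 were lower, against 6.7% of all genes, at a median of -0.22. Their median deviation was 0.58, 0.090, -0.21 and 0.33 in wild-type libraries 1 to 4 and -0.13, -0.23, -0.062 and -0.41 in heterozygote-labelled libraries 5 to 8. The cytosolic ribosomal and respiratory chain genes therefore had their highest level in wild-type library 1 and their lowest in heterozygote-labelled library 8, and whether 1 cause moves both was not tested.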

How the data were processed

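RNA from auditory nerves of 8 mice, 4 wild type and 4 labelled Mef2c heterozygote by their titles, was sequenced as strand-specific poly(A) libraries, and samples of low RNA integrity had been excluded, per the labels' protocols. The signal columns of the table the authors deposited hold gene counts divided by a size factor per library, with 1 decimal kept, a reading taken from the values. The authors' deposited columns also give a p-value and FDR, a ratio, and that ratio as log2. The authors' deposited signed fold change, a score per the file headers, was left unused. Build mm10, STAR, Partek and DESeq2 are named per the submitters' processing notes, without roles. Whether counting used the strand is not given in the sources used here. Between 85.2% and 90.1% of values under 300 normalized counts lay within 0.051 of a whole multiple of the estimated step of 1 read in their library, against 8.69% to 8.84% at a typical step, too few to recover reads, which is why the main test is not a count model.

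Genes that reached 10 normalized counts in 4 or more libraries (14870) were tested as log2(value + 1) with limma-trend (limma 3.58.1, R 4.3.3) on all 8 libraries without covariates. Adjustment was by Benjamini-Hochberg over all genes with a threshold of 0.05. This scale understates the change of low genes. Isoform ratios and sums of copies were compared with a two-sided exact permutation test with scipy 1.17.1, run with pandas 2.3.3 and numpy 2.4.6 under Python 3.11.15, and figures were drawn with matplotlib 3.10.9. Ndufb4c and Cox7c-ps1 were aligned to their parent transcripts with Biopython 1.88. Transcript lengths came from GENCODE M21 (GRCm38), matched by symbol for 85 of the 86 genes. The longest principal transcript was used for the main length correction (loess, span 0.5), and the shortest for levels and length classes.

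The genes, lists and tests were chosen with earlier results of these data known, and the roles of subunits were assigned after their values were seen. Genes were named by a rule: those past the adjusted threshold, in each complex the 2 with the lowest and the 2 with the highest fold change at a mean of at least 50 normalized counts, a set of core subunits, both genes of each isoform pair, genes whose groups did not overlap, and the extremes of each pathway list. Other genes named, to complete a role, to follow the authors' calls or an alternative, or to show a promoter, were picked with their values in view. The values of 1 gene are not reported here. Alternatives were other filters, pseudocounts, scalings, limma-voom on estimated reads, the length correction, low Xist, a residual principal component, and libraries left out.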

Additional observations from a re-analysis of the deposited data

Results flagged for a closer look

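In 6 of 160 groups of 4 libraries checked, for the 50 subunit genes and 24 other genes that the naming rule gave and further values per library, 1 library stood apart from the other three: its gap to the nearest of them, divided by the range of the group, exceeded Dixon's 95% critical value for 4 samples. Chance gives about 1 in 20, or 8 of 160. Heterozygote-labelled library 8 was the lowest for Cox5b (0.844), Ndufa3 (0.854) and Ndufv2 (0.879), and wild-type library 1 the highest for Ndufa4 (0.933). For Cox5b its value was 1776.8 normalized counts, against 2196.7 to 2274.5 in libraries 5 to 7. For Ndufa4 wild-type library 1 had 5599.9, against 3892.3 to 4006.4. The outer membrane channel gene Vdac2 had wild-type library 3 (0.864) and heterozygote-labelled library 8 (0.908) apart from their groups.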

How the results depend on the processing

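No paired analysis was possible because the replicate numbers 1 to 8 are not shared between the groups. The median fold change over the 86 genes and over each complex stayed negative under every alternative run, and 0 genes were higher at an unadjusted p under 0.05 in any. The length correction gave 25 genes lower at an unadjusted p under 0.05 in place of 57, 9 without overlap in place of 22, and medians of -0.16 over the 85 genes with a length, -0.16 over complex I, -0.15 over complex III and -0.17 over complex IV. With the shortest principal transcript, chosen after seeing the data, it gave 27 and medians of -0.17, -0.17 and -0.19 for complexes I, III and IV. Without libraries 1 and 8, also chosen after seeing the data, 17 were lower, with medians of -0.17 for complex III and -0.22 for complex V. Without wild-type library 1 and heterozygote-labelled library 5, which are low in Xist, 40 genes did not overlap in the lower direction and 1 in the higher. Smaller groups fail to overlap more easily, so the 40 cannot be compared with the 22 from all libraries. The first residual principal component as a covariate gave 29 genes at an adjusted p under 0.05 by limma-trend, against 3.87% of all genes. Being taken from the residuals of the same values, it lowers their variance and leaves the fold changes unchanged. With each library left out, the count at an adjusted p under 0.05 by limma-trend was 0 to 7 (7 without wild-type library 3). Genes lower at an unadjusted p under 0.05 then numbered 29 to 62 (29 without heterozygote-labelled library 8). Genes without overlap numbered 22 to 56 (56 without wild-type library 3, 39 without heterozygote-labelled library 5), again with a smaller group. No share over all genes is given for the 29 to 62 or for counts without overlap under an alternative. Those counts therefore lack a background. The ratio of Cox7a1 to Cox7a2 ranged from -0.23 to 0.29 and so changed sign. Overlap was not computed for the filters, pseudocounts, quantile normalization, limma-voom and covariates. The cause of these shifts was not tested. Among single genes, none of them called, under upper-quartile scaling the sign turned for Atp5g2 (-0.0066), Ndufs1 (-0.011), Sdhaf3 (-0.014) and Vdac2 (-0.0067). Under the length correction the sign turned for Cox5b (0.036), Cox7a1 (0.068), Cox8a (0.052), Ndufa3 (0.049), Ndufs1 (-0.00025), Uqcrc2 (0.0054), Ndufa1 (0.21), Ndufa12 (0.12), Atp5j (0.11), Atp5o (0.10), Ndufa10 (0.031), Ndufa9 (0.015), Cyc1 (0.019), Sdhaf3 (-0.087) and Tmem70 (0.032). Under the correction with the shortest transcript the sign turned for Cox5b (0.015), Cox7a1 (0.042), Cox8a (0.030), Ndufa3 (0.026), Ndufa1 (0.18), Ndufa12 (0.093), Atp5j (0.088), Atp5o (0.081), Ndufa10 (0.019), Ndufs1 (-0.0089), Cyc1 (0.00092), Sdhaf3 (-0.097) and Tmem70 (0.014). Under removal of libraries 1 and 8 the sign turned for Cox7a1 (0.20), Ndufs1 (-0.045), Atpaf2 (-0.0034), Rps6 (-0.0032), Tmem186 (-0.0016), Tmem70 (0.081) and Ttc19 (-0.0035). Under removal of the 2 libraries low in Xist the sign turned for Cox7a1 (0.058), Ndufs1 (-0.099), Sdhaf3 (-0.037), Tmem186 (-0.032), Tmem70 (0.016), Ttc19 (-0.063) and Vdac2 (-0.033). Under quantile normalization the sign turned for Sdha (0.0049) and Sdhaf3 (-0.018). Under a pseudocount of 10 the sign turned for Sdhaf3 (-0.0042). Under limma-voom the sign turned for Sdhaf3 (-0.042). With single libraries left out, signs turned for Atp5g2 (-0.061 to 0.11), Cox4i2 (-0.22 to 0.56), Cox7a1 (-0.51 to 0.049), Ndufa4l2 (-0.046 to 0.20), Ndufs1 (-0.070 to 0.066), Sdhaf3 (-0.19 to 0.14), Tmem186 (-0.0046 to 0.18), Tmem70 (-0.17 to 0.024) and Vdac2 (-0.016 to 0.060), and without wild-type library 3 also for Ndufa10 (0.054) and Ndufa12 (0.018). Depth limits the genes of few counts most, such as Cox4i2 at 68.8 ± 51.6 normalized counts in wild type (SD, n = 4).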
